A study of Mus musculus with 14 samples.

Results

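The m6A peak landscape of wild-type (WT) mouse embryonic stem cells (mESCs) was described from the 17693 peaks that MeRIP-seq gave in these cells, of 27130 peaks in the 2 lists of the series. Every WT peak was taken, and each was placed on the exons of the genes in the study's count table by its summit, the base of highest signal. In MeRIP-seq, fragmented RNA is immunoprecipitated (IP) for N6-methyladenosine (m6A) and sequenced beside input RNA that met no antibody, and a peak is a region where reads of the IP exceeded those of the input. The study examined a methylated arginine of METTL14, a subunit of the m6A methyltransferase, in 14 samples of WT and METTL14 R255K mESCs. The WT cells were E14Tg2a, an established male mESC line, unedited and grown without feeder cells on gelatin in serum and LIF, with no treatment. Total RNA of these cells was broken into short fragments, 2 IP and 2 input libraries were made, and ribosomal RNA was removed from the input with a kit. Transcript levels came from 1 further WT library, polyA RNA-seq at 0 h of actinomycin D, that is, before the transcription inhibitor had acted.

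m6A is the most abundant internal modification of mammalian mRNA. It is written in the nucleus by a complex of METTL3, METTL14, WTAP and further subunits, read by proteins of the YTH family, among others, and removed by the demethylases FTO and ALKBH5. In mESCs it is known for marking transcripts of pluripotency and developmental regulators for decay. It falls mostly on adenosines in a short consensus whose best-known form is GGAC, and it is known to be dense near stop codons and in long exons. The antibodies used for MeRIP-seq also bind m6Am, a related base next to the cap.

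The deposited WT peaks are 1 list made from all 4 libraries, so no peak has a value per library and no spread between replicates can be given. The read depth behind the list is unknown. The RNA-seq library held 17428469 counts over 52459 genes. Levels are given as FPKM, counts scaled to exon length and library size, computed here from those counts, and 11648 genes at FPKM 1 or more are called expressed. Intervals of shares and medians are 95% intervals and cover counting error only, since peaks and genes are not replicates. The label of the cells was checked against markers in that library. All 10 mESC markers stood at FPKM 79.4 or more, while 7 fibroblast markers summed to 1.66 (3 at 0), 5 markers of primitive endoderm to 9.04, 4 of trophoblast to 9.74 (nearly all from Krt8, with 1 at 0), and 4 of 2-cell-like cells were all at 0.

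The RNA under a summit is shown for 7 peaks, the strongest coding peak of each of the 3 genes with the most peaks and those of 4 pluripotency or m6A machinery genes, to show where GGAC, the best-known form of the consensus, stood around them. Each run is the mm10 (GRCm38) genome on the gene's strand, 5′ to 3′, from 50 bases before the summit to 50 after it, with GGAC in capitals. The titin gene Ttn is shown at chr2:76749980-76750080 (minus strand), Ahnak at chr19:9016999-9017099 (plus), Dst at chr1:34180253-34180353 (plus), Pou3f1 at chr4:124658290-124658390 (plus), Zic2 at chr14:122476125-122476225 (plus), Zc3h13 at chr14:75331942-75332042 (plus) and Cbll1 at chr12:31487391-31487491 (minus). All 7 lie in coding sequence.
Ttn: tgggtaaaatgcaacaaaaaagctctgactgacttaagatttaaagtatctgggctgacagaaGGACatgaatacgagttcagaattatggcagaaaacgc
Ahnak: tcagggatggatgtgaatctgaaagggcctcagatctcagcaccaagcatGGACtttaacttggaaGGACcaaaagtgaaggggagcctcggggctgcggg
Dst: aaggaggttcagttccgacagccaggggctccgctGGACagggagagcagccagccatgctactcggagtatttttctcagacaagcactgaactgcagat
Pou3f1: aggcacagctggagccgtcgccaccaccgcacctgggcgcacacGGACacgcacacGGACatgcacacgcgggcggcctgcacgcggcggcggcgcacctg
Zic2: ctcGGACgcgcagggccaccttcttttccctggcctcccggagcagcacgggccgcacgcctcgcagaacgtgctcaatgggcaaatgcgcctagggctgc
Zc3h13: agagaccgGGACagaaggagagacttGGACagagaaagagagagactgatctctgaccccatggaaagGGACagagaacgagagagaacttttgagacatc
Cbll1: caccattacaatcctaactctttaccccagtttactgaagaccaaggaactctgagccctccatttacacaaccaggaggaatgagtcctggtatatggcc
The Zc3h13 window held 3 copies of GGAC, the Ahnak and Pou3f1 windows 2 each, and the Cbll1 window none, although its peak had a fold enrichment of 10.57.

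Of the 17693 summits, 13420 (75.8%) lay in an exon, on 8354 genes, and 4273 lay in none. Of the expressed genes, 56.2% had at least 1 peak (6543 of 11648, 55.3 to 57.1). Peaks were shared unevenly. A single peak was found on 5156 genes, while the 3198 genes with 2 or more (38.3% of genes with a peak, 37.2 to 39.3) held 8264 peaks, 61.6% of the exonic ones. At least 5 peaks were found on 161 genes, and at least 10 on 9. Genes with more peaks were longer: median exon length went from 3995 bp with 1 peak to 4932 bp with 2, 6326 bp with 3, 8114 bp with 4 and 10579 bp with 5 or more. The median density went from 0.250 to 0.536 peaks per kb of exon. Since the groups were formed by peak number, the numerator of that density, its rise is not a separate result. Median FPKM moved little over the same groups, between 5.01 and 6.43. Summits in exons of more than 1 gene (564) were given to the gene with the highest FPKM. The count of genes with 5 or more peaks was 73 when peaks under a fold enrichment of 4 were left out.

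**Figure D1:**
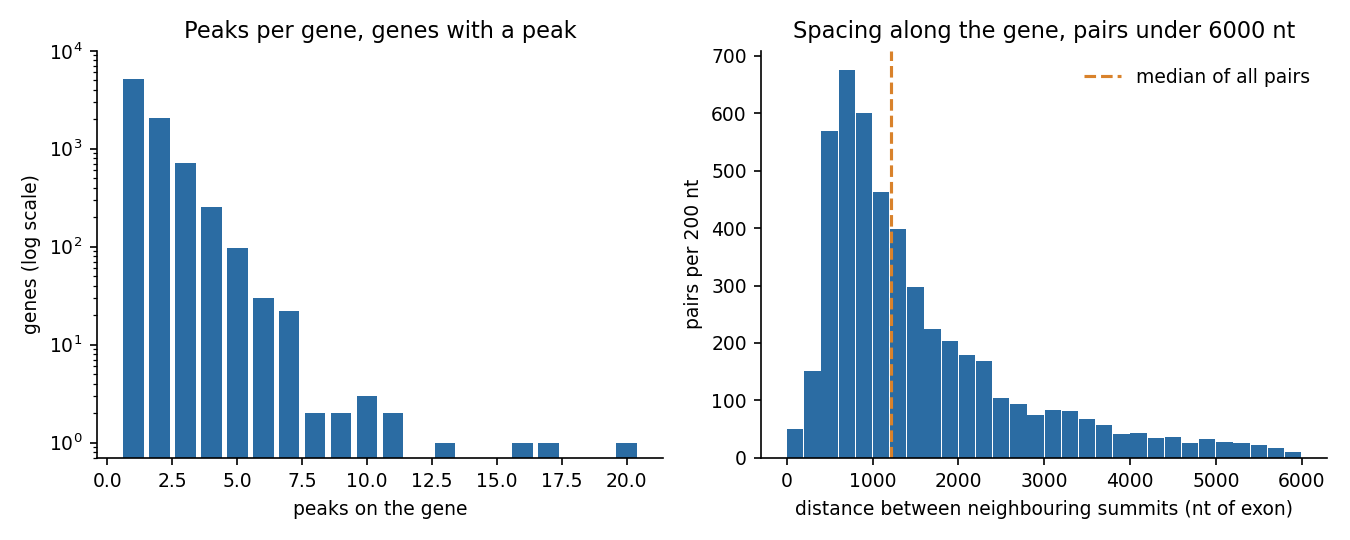
Left, number of genes (log scale) by number of peaks with the summit in their exons. Right, distance along the exons between neighbouring summits of the same gene in bins of 200 nt, for pairs under 6000 nt, with the median of all 5064 pairs dashed. Genes with 1 peak number 5156, the gene with the most has 20, and the median spacing is 1210 nt.

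The 10 genes with the most peaks were long, with 12266 to 116825 bp of exon. Ttn, which encodes the muscle spring protein titin, had 20 peaks, all in coding sequence and 10 of them in 1 exon of 17106 bp. Their fold enrichment ran from 2.99 to 11.14 with a median of 5.71. Ttn is known as a striated muscle gene, and its level here was FPKM 0.141 from 287 counts, below the floor for expression. Ahnak, a very large scaffold protein under the plasma membrane, had 17 peaks at FPKM 10.2, and all 17 lay in its coding exon of 17497 bp. Dst (dystonin) and Macf1, which link cytoskeletal filaments, had 16 and 13 peaks. The transcription factor gene Zfhx3 and the protocadherin gene Fat1 had 11 each. Ahnak2 (FPKM 0.814), Tnrc18 and the H3K4 methyltransferase gene Kmt2a had 10 each, and its relative Kmt2d had 9. Over these 10 genes the peaks were 0.171 (Ttn) to 0.917 (Ahnak) per kb of exon.

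The peaks of a gene differed widely in strength. In Ahnak the first peak of the long exon was enriched 6.38-fold, with 104 for −log10 q. The strongest, near the 3′ end of that exon, reached 8.73 and 147, and the weakest 1.87 and 4.02. Its neighbouring summits stood 464 to 2202 nt apart, with a median of 719 nt. The 16 Dst peaks lay in 7 of its 106 exons, 6 of them in an exon of 5292 bp and 5 in an exon of 6109 bp, which held the strongest (16.71). Summits in Kmt2a fell in 3 of its 37 exons, 3 in an exon of 2651 bp, 4 in an exon of 4237 bp and 3 in the last exon. On these 3 genes the peaks gathered in a few long exons, but not on all of the 10, since the Tnrc18 peaks lay in 8 of its 31 exons and the Kmt2d peaks in 7 of its 56.

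Peaks also lay on transcripts that the RNA-seq library hardly detected. Of the genes with a peak, 1811 (21.7%) were under FPKM 1 and carried 2605 peaks, and 100 of them had no count at all. After Ttn and Ahnak2, the most peaks under this floor were on Ttc28 (7, FPKM 0.559), Heg1 (7, FPKM 0.513) and Snx33 (6, FPKM 0.690). Around summits on genes under FPKM 1, the pentamer GGACT stood on the gene's strand in 26.2% of the windows of 50 bp to each side (24.5 to 27.9) and on the other strand in 8.42% (7.41 to 9.55). On genes at FPKM 1 or more the shares were 26.6% (25.8 to 27.4) and 7.63% (7.15 to 8.15). The strand bias of the motif was thus alike in both groups. The IP and input libraries were made from total RNA and the RNA-seq library from polyA RNA of another sample, and the part of this difference in the low levels was not tested.

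The share of genes with a peak was highest at intermediate levels. It was 9.54% under FPKM 0.1 (counting genes with at least 1 read), 23.5% from 0.1 to 1, 50.7% from 1 to 3, 61.4% from 3 to 10, 60.9% from 10 to 30, 51.0% from 30 to 100 and 39.0% (35.0 to 43.1) at 100 or more. The median fold enrichment of the peaks went down over the classes at FPKM 1 or more, from 7.53 to 6.77, 5.23, 3.98 and 2.51. Among expressed genes, those with and without a peak had like levels, with a median FPKM of 8.42 (8.04 to 8.70) and 8.66 (8.17 to 9.06). They differed in structure. Genes with a peak had a median exon length of 4644 bp and a median longest exon of 2194 bp (2153 to 2236), against 2618 bp and 1019 bp (985 to 1066) for genes without.

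The length of the longest exon went with the share of genes that had a peak. A peak was found on 8 of 412 expressed genes whose longest exon was under 250 bp (1.94%, 0.987 to 3.78), on 13.9% from 250 to 499 bp, 41.2% from 500 to 999 bp, 59.1% from 1000 to 1999 bp, 71.3% from 2000 to 3999 bp and 80.1% (77.8 to 82.1) at 4000 bp or more. The same order held within each level class. At FPKM 100 or more, 16.0% of the 131 genes with a longest exon under 500 bp had a peak and 60.6% of the 71 genes at 2000 bp or more. From FPKM 1 to 10 the shares were 5.79% and 74.9%. Longer exons also offer more bases in which a peak can fall, and per kb of exon the peaks numbered 0.056 in the shortest class, at most 0.233 (1000 to 1999 bp) and 0.175 in the longest.

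**Figure D2:**
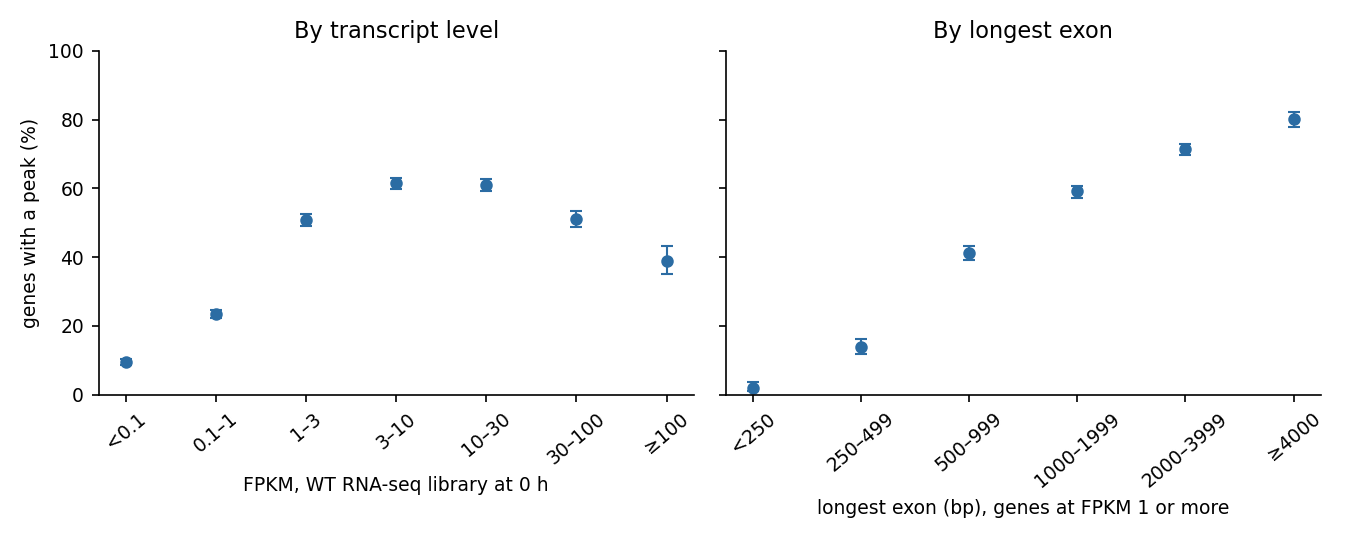
Share of genes with at least 1 peak, with 95% Wilson intervals (bars), by FPKM in the WT library at 0 h (left) and, for genes at FPKM 1 or more, by the length of the longest exon (right). The share is highest, 61.4% and 60.9%, from FPKM 3 to 30, and goes from 1.94% to 80.1% with the longest exon.

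Peaks were 200 bp wide at the least, the width of 897 of them, and 6110 bp at the most. The median was 420 bp (414 to 425) for peaks with an exonic summit and 279 bp (275 to 283) for the others. Wide peaks were strong and exonic. Of peaks of 200 bp, 38.5% had an exonic summit and the median −log10 q was 4.56, while of the 115 peaks of 2000 bp or more these values were 95.7% and 113. The widest exonic peak covered 6110 bp of Plec (chr15:76172272-76178381), which encodes the cytolinker plectin, within its last exon of 7412 bp. Peaks of 5576 bp on Rai1, a gene of transcription regulation, and 4654 bp on Ahdc1 likewise lay on single long coding exons, of 6930 and 4902 bp. The peak of 3539 bp on Arhgef17, a guanine nucleotide exchange factor gene, covered as many bases as its first exon holds. CT010467.1, annotated as ribosomal RNA, had a peak of 5797 bp at a fold enrichment of 2.00, although the authors had discarded reads that matched rRNA.

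The highest fold enrichment, 63.76, was at a peak of 502 bp on chr9:56223544-56224045. Its summit lay in the 57-bp exon of the miRNA gene Gm24270, inside the span of the kinase gene Peak1, and most of the peak lay outside that exon. The next were in Usp35, a deubiquitinase gene (53.38, coding sequence of exon 14 of 15), Ifnlr1, a receptor subunit for type III interferons (51.39, last exon, FPKM 0.412), Ctif, a translation factor that acts at the nuclear cap-binding complex (49.44, 3′UTR), and Emilin1, an extracellular matrix protein (47.51, exon 4 of 5). The 4 last-named genes stood between FPKM 0.412 and 2.34. By −log10 q the strongest peaks were on Tenm4 (294), a teneurin, Dido1 (283), a chromatin protein, Cachd1 (283), the chromatin remodeller Chd7 (258) and the cadherin Celsr1. Of those 5 genes Dido1 had the highest level, FPKM 20.9. All of these except Cachd1 had GGAC within 50 bp of the summit.

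Neighbouring summits of a gene were 1210 nt of exon apart at the median (1176 to 1246, 5064 pairs), with quartiles of 745 and 2186 nt. Pairs within 1 exon numbered 2218 and stood 962 nt apart (935 to 990), and 2846 pairs in different exons 1588 nt apart (1506 to 1679). Close pairs were few: 8.39% of pairs were under 500 nt. No pair within an exon was closer than 307 nt, and on the genome no peaks were less than 143 bp apart. All peaks were at least 200 bp wide, so sites close together can share 1 peak. The scarcity of close pairs thus does not show that m6A sites are seldom close. The pair farthest apart within 1 exon was on Fut9, a fucosyltransferase gene known for making the SSEA-1 epitope of mESCs, with summits 9843 nt apart in its last exon of 11489 bp and fold enrichments of 8.79 and 11.97. Spacing was a little shorter on genes with more peaks, with a median of 1311 nt at 2 peaks and 1090 nt at 5 or more.

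Along the summed exons of a gene, divided into 10 bins of equal length from the 5′ end, summits were spread rather evenly. The shares lay between 7.97% in the bin at the 3′ end and 11.5% in the eighth. Beyond the midpoint, on the 3′ side, lay 52.5% of them (51.7 to 53.4), but 45.7% (44.8 to 46.6) when positions were read on the transcript with the longest coding sequence of each gene in place of merged exons, so no lean to either side held in both. The 10% of peaks with the highest −log10 q were sparser at both ends, with 3.95% in the first and 6.48% in the last bin. Per kb of those transcripts in expressed genes, the coding sequence held 0.297 summits, the 3′UTR 0.265 and the 5′UTR 0.257.

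The place of summits was sharp when read from 2 landmarks, the stop codon and the last exon's first base. Within the 100 nt after the last coding base the density was 1.128 summits per kb, against 0.219 to 0.283 from 1400 to 200 nt before it and 0.110 at 900 to 999 nt after it. From the start of the last exon the density stood at 0.090 in the 100 nt before, 0.099 in the first 100 nt, 1.012 in the next 100 nt and 1.489 from 200 to 299 nt, then went down to 0.566 at 400 to 499 nt. The step from the first to the second 100 nt of the last exon, 97 summits against 975, was the steepest in either profile.

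**Figure D3:**
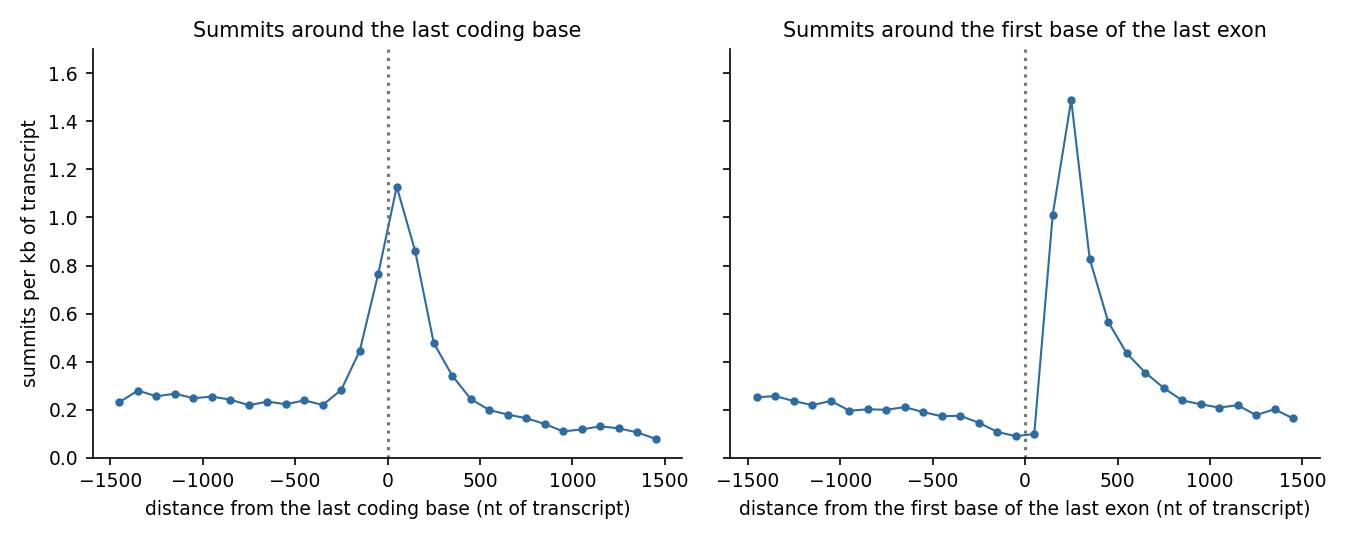
Summits per kb of transcript in bins of 100 nt around the last coding base (left, 10117 transcripts) and around the first base of the last exon (right, transcripts of more than 1 exon), on the transcript with the longest coding sequence of each gene at FPKM 1 or more. The left profile is highest, 1.128, just after the stop codon, and the right one stays at 0.099 for 100 nt into the last exon before it goes to 1.489.

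These landmarks lie close together on most transcripts, so they were separated by the distance between them. Where the stop codon lay in the first 100 nt of the last exon (2754 transcripts), the density within 100 nt to each side of the stop was 0.297 summits per kb, and where it lay upstream of the last exon (457 transcripts) it was 0.208. It was 1.048 with the stop in the second 100 nt, 1.881 at 200 to 399 nt, 1.385 at 400 to 799 nt, 0.911 at 800 to 1599 nt and 0.905 at 1600 nt or more. The density from 150 to under 350 nt into the last exon varied less over the same classes, from 0.800 for stops upstream of the exon and 0.897 for stops in its first 100 nt to 2.061 at 200 to 399 nt and 1.341 at 1600 nt or more. With the stop codon 1600 nt or more from the last junction, both densities were above the 0.219 to 0.283 found upstream of stop codons. That range covers all transcripts, whatever the length of their exons. On the same transcripts, internal exons of 1000 bp or more held 0.630 to 0.828 summits per kb over their whole length. The part of exon length in the density around these stops was not tested. Transcripts of 1 exon (248), which have no junction, had 1.023 summits per kb around the stop. Where the stop lay in the first 100 nt of the last exon, the window around it fell largely in bases near the junction, where summits were sparse (0.099 per kb) over all transcripts of more than 1 exon.

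Long internal exons nearly always held a summit. On the transcript with the longest coding sequence of each expressed gene, 634 of the 682 internal exons of 1000 bp or more had one (93.0%, 90.8 to 94.7), and 110 of the 85321 internal exons under 200 bp (0.129%, 0.107 to 0.155). The share went from 3.46% at 200 to 399 bp to 1221 of 1849 exons (63.8 to 68.2%) at 400 to 999 bp, 91.4% at 1000 to 1999 bp, 96.7% at 2000 to 3999 bp and 97.5% (39 of 40) at 4000 bp or more. Exons of 400 bp or more were 2.60% of these internal exons and 16.6% of their length, and they held 83.5% (82.1 to 84.9) of their 2674 summits. Per kb the density was highest at 400 to 999 bp, with 1.093 summits, and 0.630 in the longest class, against 0.012 from 100 bp to under 200 bp. With the exons of all transcripts merged, as the count table lists them, the share of summits in internal exons of at least 400 bp was 88.7% (87.7 to 89.7). Such exons then made up 55.8% of the length, however, and 22.0% of the merged exons of 2000 to 3999 bp held a summit. Merging can turn retained introns into exon, and their part in this was not tested. The choice of the single transcript was made after these data were seen. Of 176 peaks with the summit in an exon under 200 bp of any kind, none lay wholly inside the exon, and a median of 41.6% of their width did. No peak in the list was narrower than 200 bp, and the part of peak calling on the genome in the near absence from short exons was not tested.

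**Figure D4:**
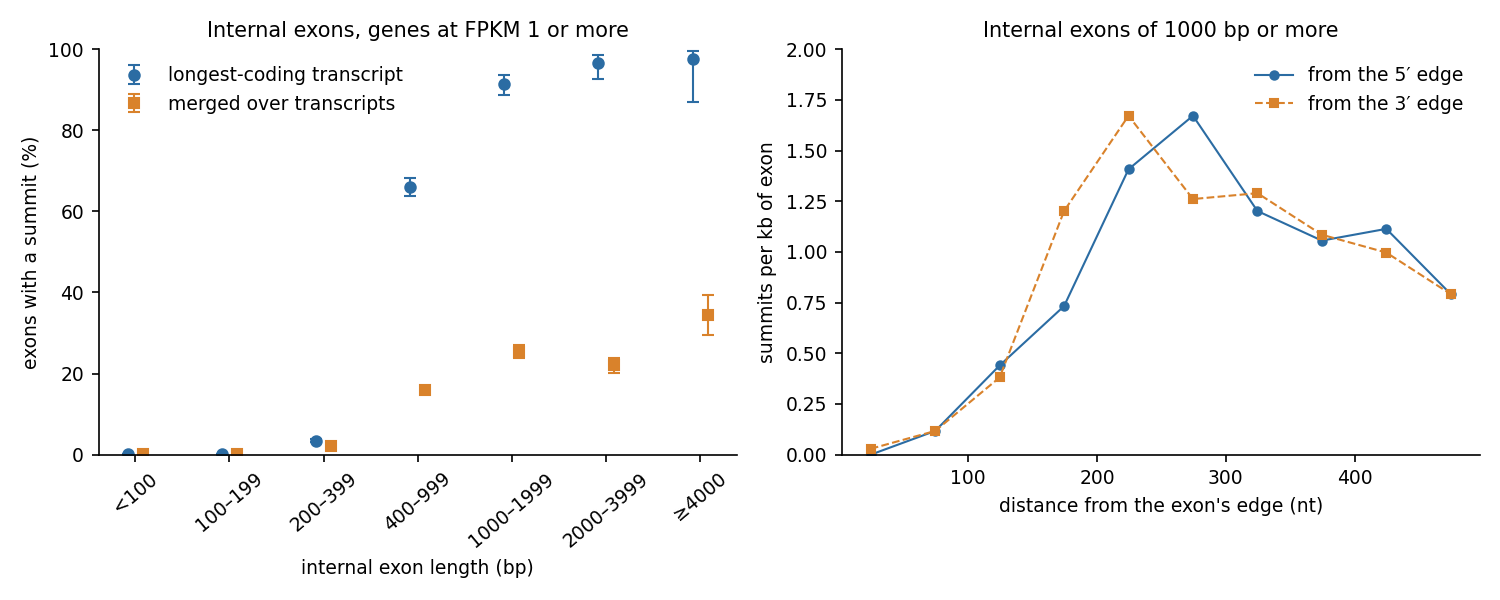
Left, share of internal exons with a summit, with 95% Wilson intervals (bars), by exon length, for the transcript with the longest coding sequence (circles) and for exons merged over all transcripts (squares), genes at FPKM 1 or more. Right, summits per kb by distance from the 5′ edge (circles) and the 3′ edge (squares) of the 682 internal exons of 1000 bp or more. The share in the single-transcript exons goes from 3.46% at 200 to 399 bp to 91.4% at 1000 to 1999 bp, and both edge profiles start near 0 and reach 1.672.

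Among internal exons of expressed genes, those with the most summits included the Ahnak exon with 17 and exon 10 of Bod1l with 6 in 5953 bp. The Dst exon of 5292 bp held as many as the Bod1l exon. Of the 193 single-transcript internal exons of 2000 bp or more, 6 held no summit, and they were named after their values were seen. They were in Naca (5916 bp, a long exon known from the muscle form of this nascent chain protein), Map4 (3180 bp), Fubp1 (2694 bp), Chpf2 (2285 bp), Fam196b (2250 bp) and Tet3 (2158 bp). A peak touched the Chpf2 exon without having its summit there. The other five were touched by none, although Map4 had 5 peaks and Tet3 had 2 elsewhere. Among merged internal exons of expressed genes, the longest without a summit were in Ube2d3 (19684 bp), N4bp2l2 (14768 bp) and Nktr (10079 bp).

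Few summits lay near the edges of exons. In the 682 long internal exons, 0 of 1000 summits lay in the first 50 nt and 1 in the last 50 nt. The density was 0.117 per kb at 50 to 99 nt from either edge, and it reached 1.672 at 250 to 299 nt from the 5′ edge and at 200 to 249 nt from the 3′ edge. In last exons of 1000 bp or more (5660), it went from 0.039 in the first 50 nt to 2.007 at 200 to 249 nt, and at the 3′ end, which is a transcript end and not a splice site, it was 0.011 in the last 50 nt and at most 0.286 within 500 nt. The 186 transcripts of 1 exon with 1000 bp or more, with no splice site at either end, had 0 of 229 summits in their last 200 nt and 4 in their first 100 nt. A summit is the middle of a pile of fragments, and the part of this in the low density at edges was not tested.

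The pentamer GGACT stood within 50 bp of the summit, on the gene's strand, in 26.5% of 13410 exonic windows (25.8 to 27.3), against 9.42% of all 462768 windows of the same length laid end to end through the exons of expressed genes and 7.79% on the other strand. Its ratio of 2.82 was the highest of 18 pentamers searched on the gene's strand, those made of A, G or T, then A or G, then AC, then A, C or T. The next were GGACA with 26.0% (ratio 2.31), GGACC with 19.5% (2.14) and AGACT with 22.2% (2.05). Pentamers that start with TAAC went the other way, with ratios of 0.69 to 0.74. At least 1 of the 18 stood in 95.6% of the windows, but also in 85.2% of the tiled ones, so that the presence of any form tells little. At least 2 copies of GGAC, as in the Ahnak, Pou3f1 and Zc3h13 windows printed above, were in 23.4% against 5.71%. The tiled windows ran through exons merged over transcripts, which take in retained introns, and through expressed genes only. Of the summit windows, 2602 lay on genes under FPKM 1. The part of these differences in the ratios was not tested.

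GGACT was centred on the summit. Counted in bins of 25 nt within the summit's exon, it occurred 3.58 times per 1000 positions at the summit, 1.84 and 1.99 times at 75 nt upstream and downstream, and 0.80 to 1.01 times from 200 to 300 nt away. Its reverse complement was at its lowest at the summit, with 0.70, and 0.97 to 1.20 from 200 to 300 nt away. Stronger peaks held it more often. From the quartile of lowest to that of highest −log10 q, the share with GGACT was 21.9%, 24.2%, 27.4% and 32.5% (30.9 to 34.1), while the share on the other strand stayed between 7.25% and 8.23%. These matches are letters in a window and do not locate a modified base.

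Of 17 core and naive pluripotency factors, 15 had a peak (88.2%, 65.7 to 96.7), beside 56.2% of all expressed genes, and together they had 30. Sall4 and Esrrb, a zinc finger factor and an orphan nuclear receptor of the pluripotency network, had 5 each. The Esrrb peaks had fold enrichments of 3.16, 1.64, 4.81, 1.95 and 2.89 from 5′ to 3′, the last 3 in the 3′UTR. The core factors Pou5f1, Sox2 and Nanog had 1 peak each, at 1.62, 3.57 and 3.15, on transcripts of FPKM 433, 230 and 220. Klf4 had 3 peaks, at 2.61, 4.03 and 5.91, in its 5′UTR, coding sequence and 3′UTR. The strongest peak of the list was on Nr5a2, a nuclear receptor gene (10.85). Stat3, the effector of LIF, and Dppa3 had none. Of 9 formative pluripotency genes, which mark the transition from the naive state, 7 had a peak (77.8%, 45.3 to 93.7), and that interval includes 56.2%. The POU factor gene Pou3f1 had a single strong one (23.98, 1719 bp wide, FPKM 5.56) and Otx2 one of 14.60. The DNA methyltransferase gene Dnmt3b and Etv4 had none at FPKM 43.2 and 60.6.

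The m6A machinery was itself represented. The list of 9 writer genes held 8 for subunits of the complex and Mettl16 for a separate m6A methyltransferase. Of these 9 genes, 8 had a peak (88.9%, 56.5 to 98.0), beside 56.2% of all expressed genes, and together they had 17. Mettl16 accounted for 1 of these peaks (5.09). The median longest exon of the writer list was 3486 bp. Of all expressed genes with a longest exon from 2000 bp to under 4000 bp, 71.3% had a peak, a share inside the writers' interval. The part of exon length in the share of the writers was not tested. Zc3h13, which keeps the complex in the nucleus, had 6, with fold enrichments of 5.29, 13.43, 8.64, 2.84, 16.79 and 4.84 from 5′ to 3′, the first 5 in coding exons of 308 to 1191 bp. Virma, the scaffold subunit, had 3 and the adaptor Wtap 2. Mettl14 had 1 weak peak (2.99, 3′UTR), and the catalytic subunit gene Mettl3 had none at FPKM 8.95. Of 12 readers and erasers, 7 had a peak (58.3%), a share near that of all expressed genes. The nuclear reader Ythdc1 had 4, the cytoplasmic reader genes Ythdf1, Ythdf2 and Ythdf3 had 1, 2 and 3, the demethylase genes Alkbh5 and Fto 2 and 1, and Igf2bp2, Igf2bp3, Hnrnpa2b1, Hnrnpc and Ythdc2 none.

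In 4 lists of chromatin and signalling genes the share ranged from 72.7% to 95.5%, beside 56.2% of all expressed genes. The median longest exon of these lists was 1792 to 3204 bp. Of all expressed genes with a longest exon of 1000 to 1999 bp, 59.1% had a peak, and 71.3% at 2000 to 3999 bp. The part of exon length in the shares of these lists was not tested. Of 16 H3K4 methyltransferase and CHD remodeller genes, 15 had a peak (93.8%, 71.7 to 98.9), 62 in all, with Chd7 at 20.73 and Chd2 at 19.61 among the strongest and Chd3 without one. Of 22 expressed Polycomb genes 16 had a peak (72.7%), with an interval of 51.8 to 86.8 that includes the share of all expressed genes. The catalytic subunit gene Ezh2 had none at FPKM 26.5, whereas its partner gene Suz12 had a peak of 8.34 at FPKM 40.5. Of 22 Nodal and BMP pathway genes 21 had a peak (95.5%, 78.2 to 99.2). The ligand gene Nodal had 3 (3.29, 5.15 and 6.41), the receptor gene Acvr2b 1 (15.39), and the signal transducers Smad1 and Smad3 had peaks of up to 18.53 and 15.83. The inhibitor gene Lefty1 had none at FPKM 22.8. Of 16 expressed Wnt pathway genes 13 had a peak (81.2%, 57.0 to 93.4). Apc, the scaffold of the β-catenin destruction complex, had 6, all in its last exon of 10185 bp, with fold enrichments of 3.03 to 12.91. All 12 expressed immediate early and Myc genes had a peak (75.8 to 100), among them Myc, with 2 of 2.69 and 11.51. Jun, under FPKM 1, had a peak of 21.18 over 2392 bp of its single exon. All 8 expressed members of the list of nuclear long noncoding RNAs had a peak (67.6 to 100), and most had 1 despite great length. Their median longest exon was 6095 bp. Of all expressed genes with a longest exon of 4000 bp or more, 80.1% had a peak, a share inside that interval. The part of exon length in the share of this list was not tested. Among its 8 expressed members, Snhg11 is annotated as protein-coding in GENCODE vM21, with its summit in a 3′UTR. Malat1 (6983 bp) and Neat1 (20771 bp) had 1 each, at 3.42 and 7.53. The 8 expressed members had 0.096 peaks per kb of exon, beside 0.203 for all expressed genes.

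**Figure D5:**
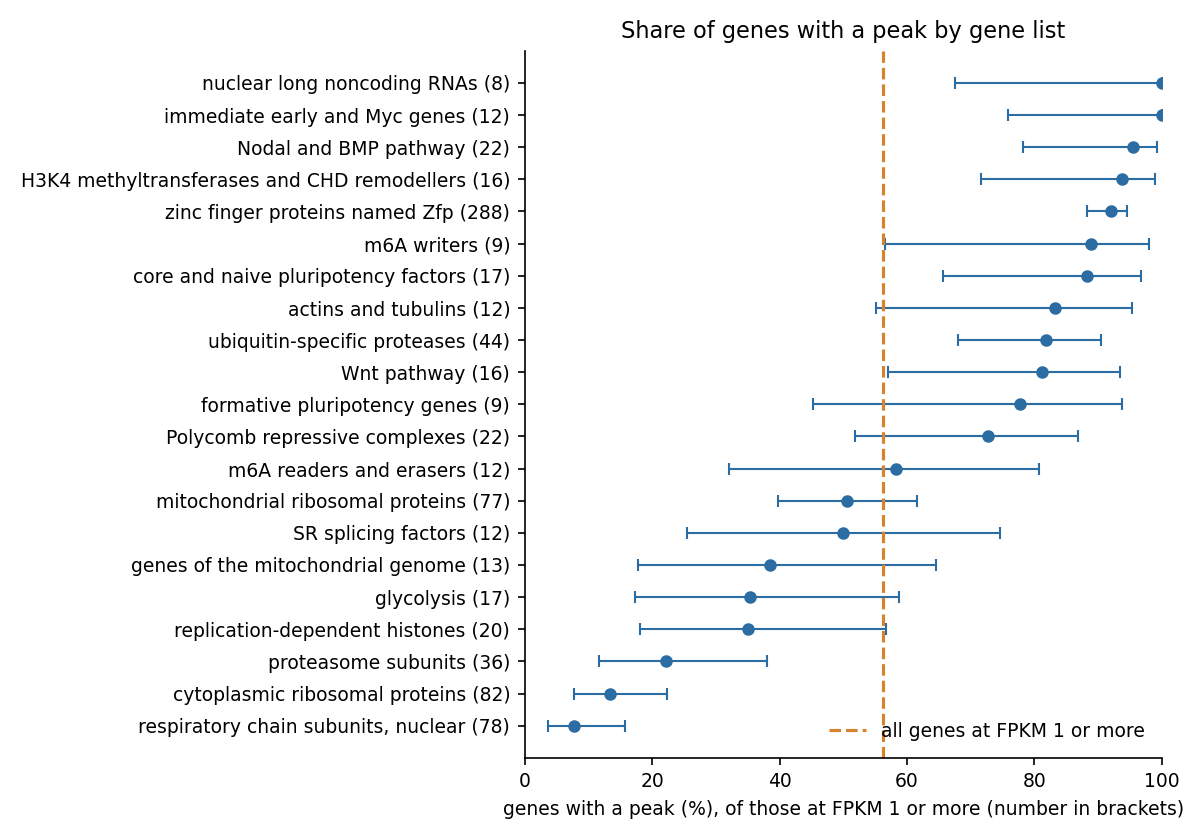
Share of genes with at least 1 peak in each gene list, with 95% Wilson intervals (bars), of the list's genes at FPKM 1 or more (their number in brackets), and the share over all such genes (dashed, 56.2%). Shares run from 7.69% for nuclear-encoded respiratory chain subunits to 100% for the immediate early and Myc genes and the long noncoding RNAs.

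The share was high in the long list of zinc finger genes and low among genes of the respiratory chain, the ribosome and the proteasome. Of 288 expressed genes named Zfp, 265 had a peak (92.0%, 88.3 to 94.6) and 539 peaks in all. Their median longest exon was 2888 bp and their median FPKM 4.39. Of 44 expressed ubiquitin-specific proteases 36 had a peak (81.8%, 68.0 to 90.5). Their median longest exon was 2684 bp. Of all expressed genes with a longest exon of 2000 to 3999 bp, 71.3% had a peak, a share inside that interval. The part of exon length in the share of these proteases was not tested. Of 12 actins and tubulins 10 had one (83.3%), with an interval of 55.2 to 95.3 that includes 56.2%, and Actb, at FPKM 536, had 3 peaks. Of 78 nuclear genes of the respiratory chain, 6 had a peak (7.69%, 3.57 to 15.8), of 82 cytoplasmic ribosomal protein genes 11 (13.4%, 7.66 to 22.4), of 36 proteasome subunit genes 8 (22.2%, 11.7 to 38.1) and of 17 glycolysis genes 6 (35.3%, 17.3 to 58.7, which includes 56.2%). The median longest exon of these lists was 720, 798, 910 and 1059 bp and their median FPKM 73.6 to 259, and the part of exon length and level in these shares was not tested. Mitochondrial ribosomal proteins (39 of 77, 50.6%) and SR splicing factors (6 of 12) were near the share of all expressed genes. Among 20 expressed replication-dependent histone genes 7 had a peak (35.0%), with an interval of 18.1 to 56.7 that includes 56.2%. Their median longest exon was 519 bp, and they had 0.619 peaks per kb of exon, beside 0.203 for all expressed genes. Of all expressed genes with a longest exon of 500 to 999 bp, 41.2% had a peak. The mRNAs of these histone genes have no polyA tail, so their FPKM in a polyA library is a low estimate. Reads of near-identical copies of histone and ribosomal protein genes could have been dropped when unique reads were kept.

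Of 5270 genes at FPKM 10 or more, 2355 had no peak (44.7%). The most abundant protein-coding ones outside the ribosomal, histone and mitochondrial-genome lists were Dppa5a, an RNA-binding protein of pluripotent cells, at FPKM 878, and Sod1, superoxide dismutase, at 759. Then came the ferritin gene Fth1 (649), Trim28, a corepressor recruited by zinc finger proteins (627), the nucleolar protein gene Npm1 (616), Hnrnpa1 (503), Fau (490), the ATP synthase genes Atp5b (466) and Atp5a1 (437), and the chaperone gene Hspa8 (453). The longest exon of 9 of these 10 was 188 to 946 bp, and that of Hspa8 2227 bp. A peak touched an exon of Hnrnpa1 without having its summit there. Long transcripts without a peak existed too. Ubap2l, Ubr4, Ipo8, Fubp1 and Xpo7 had 15121 to 18659 bp of merged exon at FPKM 12.1 to 34.1 and no summit. The ubiquitin ligase gene Ubr4 had 109 exons, the longest 674 bp. For Ubap2l, Ipo8, Fubp1 and Xpo7 the longest merged exon was 3435 to 11849 bp.

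Of the genes that the study followed by MeRIP-qPCR, Gas2l3 had the strongest peak in WT cells (18.34, coding part of its last exon). Smad7, an inhibitor of TGFβ signalling, had 3 peaks at 4.31, 9.93 and 4.53, Smad6 had 2 at 3.62 and 8.54, both in its first exon, and Trim71, a ubiquitin ligase gene of early development, 2 at 5.79 and 3.42. Zfp36l1, an mRNA decay factor gene, had 2 at 3.32 and 3.38, the first of them in an exon shared with another gene. Nedd4, another ubiquitin ligase gene, had no summit in its exons, as the count table lists them, at FPKM 182. The list held 2 peaks within its span, and neither touched one of its exons.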

How the data were processed

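MeRIP-seq of WT mESCs (2 IP and 2 input libraries) and 1 WT polyA RNA-seq library were used. The authors discarded reads that mapped to rRNA with Bowtie2 2.2.6, aligned the rest to mm10 with HISAT2, kept unique reads of high mapping quality with Picard 2.16.0 and SAMtools 0.1.09 and ran MACS2 on IP against input without its model of fragment length. How the libraries were combined is not given in the sources used here. The deposited list gives each peak's fold enrichment at the summit (a ratio to MACS2's local background estimate) and a −log10 q. The deposited counts are whole numbers for each gene, without normalization, in a table of the authors that also lists exons and strand. The counting tool and its strand setting are not given in the sources used here. FPKM was computed from these counts, the table's exon length and the summed count (17428469). Of the other peak list only the number of peaks was used, and the remaining RNA-seq libraries were not used here.

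Exons of a gene were merged over its transcripts. A peak belonged to the gene whose exon held its summit, and of several genes to the one with the highest FPKM (minimum for expression 1). Of 52459 genes, 48108 matched GENCODE vM21 by symbol, which gave coding sequence and the transcript with the longest coding sequence. Motifs were searched in the GRCm38 genome, where no peak (0) passed a chromosome's end. Intervals are Wilson intervals for shares and order statistics for medians. No test was made, because 1 list holds no replicates. The code was checked on toy genes and peaks with known answers. Tools were samtools 1.23.1, pysam 0.24.0, scipy 1.17.1, pandas 2.3.3, numpy 2.4.6, matplotlib 3.10.9 and Python 3.11.15. The peaks and lists described were chosen with earlier results of these data known.

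Named were the 10 genes with the most summits, the 5 peaks highest in width, fold enrichment or −log10 q, the genes at FPKM 10 or more without a peak that were highest in FPKM (10) or exon length (5), the 3 internal exons of expressed genes with the most summits and the 3 longest without, the farthest pair in an exon, list members and the genes followed by MeRIP-qPCR. One of these exons is not reported here. Alternatives were a minimum of 4 for fold enrichment or 5 for −log10 q, assignment by any overlap, exclusion of summits on several genes, merging of peaks within 200 bp, other FPKM minimums (0.5 and 5), exon limits (200 and 1000 bp) and windows (100 bp), and other gene models.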

Additional observations from a re-analysis of the deposited data

How the results depend on the processing

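Of 43 alternatives for 9 results, 20 left the value within 1.5 times (counts) or within its 95% interval (shares and medians), and 23 moved it. The 56.2% of expressed genes with a peak became 57.8% by any overlap, 54.8% without summits on several genes, 45.8% at a fold enrichment of at least 4 (14318 peaks), 54.9% at a −log10 q of at least 5 (15585 peaks), 57.2% at FPKM 5 and 53.4% at FPKM 0.5. Genes with at least 5 peaks fell from 161 to 73 at a fold enrichment of 4. The median width of all peaks, 381 bp, became 410 bp by fold enrichment, 408 bp by q, 420 bp for exonic summits and 387 bp after merging. The median spacing of 1210 nt became 1320, 1267 and 1314 nt by fold enrichment, by q and after merging. The 52.5% of summits beyond the midpoint became 45.7% on the transcript with the longest coding sequence, which has other exons than the merged model. The 88.7% of internal-exon summits in exons of at least 400 bp became 93.5% by fold enrichment, 90.6% by q, 86.0% at FPKM 5, 97.6% and 51.1% with limits of 200 and 1000 bp, and 83.5% on the single transcript, an alternative chosen after seeing the data. The 26.5% of windows with GGACT became 28.1% by fold enrichment and 38.9% with 100 bp to each side. Where no construction of the alternative shows it, the cause was not tested. No paired analysis was possible because the WT libraries were deposited as 1 peak list, and for the same reason no replicate could be left out. The depth behind the list is unknown, so the absence of a peak does not show the absence of m6A.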

Other observations

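Expressed genes of the X chromosome had a peak less often than those of any autosome: 166 of 396 (41.9%, 37.2 to 46.8), against 52.7% (chromosome 6) to 62.9% (chromosome 8). Of X-chromosomal peaks 58.5% had an exonic summit, against 68.1% (chromosome 16) or more on the autosomes. The 7 peaks on the mitochondrial genome all lay in annotated genes, 5 of them on protein-coding genes (mt-Co1, mt-Cytb, mt-Nd1, mt-Nd4 and mt-Nd5) with fold enrichments of 1.44 to 1.67. On the unplaced scaffolds 19 peaks were listed, none in an exon. Protein-coding genes made up 93.0% of the 8354 genes with a peak (7773), lincRNA genes 119 and processed pseudogenes 102.

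Among summits in last exons of 1000 bp or more, 47.6% of 4921 lay in the fifth of the exon nearest its 5′ edge and 7.74% in the fifth at the 3′ end. In internal exons of this length, merged over transcripts, the first and last such parts held 28.5% and 15.5% of 1788 summits.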
